A study of Mus musculus with 10 samples.

Results

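The regions described here were bound by p65 in unstimulated Treg and in unstimulated Tconv and were absent from the lists of both cell types after stimulation. They numbered 475 of the 11923 regions formed by merging the authors' 4 lists of ChIP-seq peaks (3.98%). With all 4 lists ended at the same −log10 p of 38.1 they numbered 154, of which 101 overlapped the 475, and with the upper 50% of each unstimulated list 147. ChIP-seq, chromatin immunoprecipitation with sequencing, shows where a protein sat on DNA, and a peak is a stretch where the reads pile up over the local background. Overlapping peaks were merged within each list, and the 4 lists were then merged wherever regions shared at least 1 bp. A region was kept if it held peaks of both unstimulated lists and none of either stimulated list. The regions were thus chosen by presence in the lists, and their number and strength are a description without a test. The regions made up 14.8% of the 3208 regions of the unstimulated Treg list and 16.0% of the 2961 of the unstimulated Tconv list.

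The cells came from spleens and lymph nodes of C57BL/6 mice, with no genetic alteration or age named. The series has 10 libraries: 2 each of stimulated Treg, stimulated Tconv, unstimulated Treg and unstimulated Tconv, and 2 inputs of chromatin mixed from all of them. Stimulation was 3 h on plates coated with anti-CD3, with anti-CD28 in solution and IL-2 at 10 ng/ml for Treg and 2 ng/ml for Tconv, and what the unstimulated cells received is not stated. Stimulation, culture and IL-2 cannot be told apart, nor can cell type and IL-2 dose in the stimulated cells. The authors pooled both libraries of a group into 1 list, which leaves no replicate spread to report; the depth of the libraries is unknown, and the intervals below are 95% Wilson intervals that cover counting error over regions alone.

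p65, also called RelA, is the NF-kB subunit that carries a strong transactivation domain. In resting cells most NF-kB is held in the cytoplasm by inhibitors of the IkB family. Signals from the T cell receptor and CD28 lead to the destruction of these inhibitors, and the dimers enter the nucleus, where they bind kB sites in promoters and enhancers. Treg depend on NF-kB for their development and maintenance, and Foxp3 is the transcription factor that defines them.

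The resting-only regions lay mostly at the starts of genes. The promoters of Pink1, Ankrd26, Nop56 and Dynlrb2, which held no kB match in the 200 bases before the start, are shown because they carried the strongest resting-only summits within 250 bp before to 50 bp after an annotated start. They are given 5′ to 3′ on the strand of the gene, ending at the base before the start, from RefSeq's promoters of GRCm38.p6, whose chromosome positions are those of mm10. They are read from chr4:138326297-138326496 on the minus strand for Pink1, chr6:118562272-118562471 on the minus strand for Ankrd26, chr2:130274212-130274411 on the plus strand for Nop56, and chr8:116504815-116505014 on the plus strand for Dynlrb2. Capitals mark matches to kB, ETS, NRF1, Sp or CCAAT motifs, of which only a reversed CCAAT box at Nop56 was found.
Pink1: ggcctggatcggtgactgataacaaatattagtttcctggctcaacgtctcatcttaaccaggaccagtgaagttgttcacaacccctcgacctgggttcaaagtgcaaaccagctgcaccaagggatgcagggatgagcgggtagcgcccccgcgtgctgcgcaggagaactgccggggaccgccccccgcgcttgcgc
Ankrd26: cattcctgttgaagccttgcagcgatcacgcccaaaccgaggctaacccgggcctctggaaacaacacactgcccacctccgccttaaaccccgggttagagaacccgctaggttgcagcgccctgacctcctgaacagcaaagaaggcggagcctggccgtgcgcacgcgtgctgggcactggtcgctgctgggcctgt
Nop56: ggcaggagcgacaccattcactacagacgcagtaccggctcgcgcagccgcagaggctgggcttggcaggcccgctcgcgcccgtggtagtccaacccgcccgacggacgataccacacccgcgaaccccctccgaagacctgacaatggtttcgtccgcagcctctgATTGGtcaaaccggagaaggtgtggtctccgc
Dynlrb2: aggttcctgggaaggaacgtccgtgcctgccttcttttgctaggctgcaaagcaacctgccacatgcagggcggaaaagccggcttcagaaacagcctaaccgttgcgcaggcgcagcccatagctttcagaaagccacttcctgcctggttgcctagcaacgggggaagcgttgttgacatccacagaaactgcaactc

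The resting-only promoters that did hold a kB match, GGGNNTTCC on either strand, are represented by Eml4, Pdrg1, Mrpl34 and Pcnx4, the strongest with both the match in the printed bases and the summit within 250 bp before to 50 bp after the start. They are shown with the kB match alone in capitals, in reverse on the strand of the gene in all 4. Matches to the ETS, NRF1, Sp and CCAAT motifs, which these promoters also hold in part, are not marked here. At Pdrg1 and Mrpl34 an ETS match, CCGGAAG, shares bases with the kB match. The capitals at Eml4 also take in a match of the degenerate 10-base kB consensus, which overlaps the shorter one. Their positions are chr17:83350731-83350930 on the plus strand for Eml4, chr2:153015384-153015583 on the minus strand for Pdrg1, chr8:71464726-71464925 on the plus strand for Mrpl34 and chr12:72536157-72536356 on the plus strand for Pcnx4. Nfkbia, which encodes the inhibitor IkBα and had a region in all 4 lists, is set beside them for contrast, from chr12:55492648-55492847 on the minus strand. Its capitals mark a match of the 10-base consensus. Unlike the others, its summit lay 675 bp downstream of the start, outside the printed bases.
Eml4: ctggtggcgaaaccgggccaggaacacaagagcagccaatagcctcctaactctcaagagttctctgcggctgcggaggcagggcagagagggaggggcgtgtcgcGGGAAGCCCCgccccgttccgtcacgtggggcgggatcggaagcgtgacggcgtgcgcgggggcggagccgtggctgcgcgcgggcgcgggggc
Pdrg1: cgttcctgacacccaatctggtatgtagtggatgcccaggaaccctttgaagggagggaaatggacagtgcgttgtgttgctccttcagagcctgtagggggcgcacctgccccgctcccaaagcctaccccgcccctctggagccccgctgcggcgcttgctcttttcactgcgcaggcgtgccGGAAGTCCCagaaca
Mrpl34: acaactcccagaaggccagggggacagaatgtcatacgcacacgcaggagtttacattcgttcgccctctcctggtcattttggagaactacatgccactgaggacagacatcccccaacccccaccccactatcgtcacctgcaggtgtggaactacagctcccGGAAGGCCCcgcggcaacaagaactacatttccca
Pcnx4: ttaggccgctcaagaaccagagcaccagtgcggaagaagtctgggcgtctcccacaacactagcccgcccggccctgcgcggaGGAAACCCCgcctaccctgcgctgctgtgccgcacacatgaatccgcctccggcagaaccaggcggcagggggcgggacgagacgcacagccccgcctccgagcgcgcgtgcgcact
Nfkbia: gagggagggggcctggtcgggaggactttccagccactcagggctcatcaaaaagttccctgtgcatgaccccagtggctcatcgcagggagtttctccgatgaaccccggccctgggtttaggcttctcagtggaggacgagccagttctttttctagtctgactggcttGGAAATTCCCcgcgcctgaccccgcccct

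In strength the resting-only regions were nearly equal in the 2 cell types and below the regions of all 4 lists. The fold enrichment of the summit over its local background, as the authors' peak caller gave it, ranged from 2.22 to 22.2 with a median of 7.50 in the unstimulated Treg list. In the unstimulated Tconv list it ranged from 2.48 to 21.8 with a median of 7.66. Only 10 of the 475 exceeded 15-fold in both lists and 73 exceeded 10-fold in both, while 12 were under 5-fold in both. The 1644 regions found in all 4 lists had higher medians, 12.0-fold in unstimulated Treg and 11.4-fold in unstimulated Tconv. At the common −log10 p the medians were 11.7-fold and 11.8-fold for the 154 resting-only regions, against 18.1-fold and 17.8-fold for 840 regions of all 4 lists. The 344 regions of both unstimulated lists that were also in the stimulated Treg list alone stood close to the resting-only ones, at 8.13-fold and 7.94-fold, while the 69 also in the stimulated Tconv list alone had medians of 11.8-fold and 12.1-fold. At the common −log10 p these classes held 34 and 155 regions, with medians of 13.0-fold and 12.8-fold, and of 13.6-fold and 13.8-fold. Their sizes and the gap between their medians thus changed with the ends of the lists.

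Resting-only regions were scarce among the strongest. Of the 2532 regions in both unstimulated lists, 18.8% were in neither stimulated list. When these 2532 were ranked by the geometric mean of their 2 folds and cut into 5 groups of equal size, 150 of 507 in the weakest group (29.6%, 25.8 to 33.7%) were resting only, and 146 of 506 in the next (28.9%). The share was 23.7% in the middle group and 10.5% in the one above it. In the strongest group, above 17.1-fold, it was 6 of 507 (1.18%, 0.543 to 2.56%), and these 6 regions belonged to Pink1, Ankrd26, Cox17, Nop56, Dynlrb2 and Ell.

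**Figure D1:**
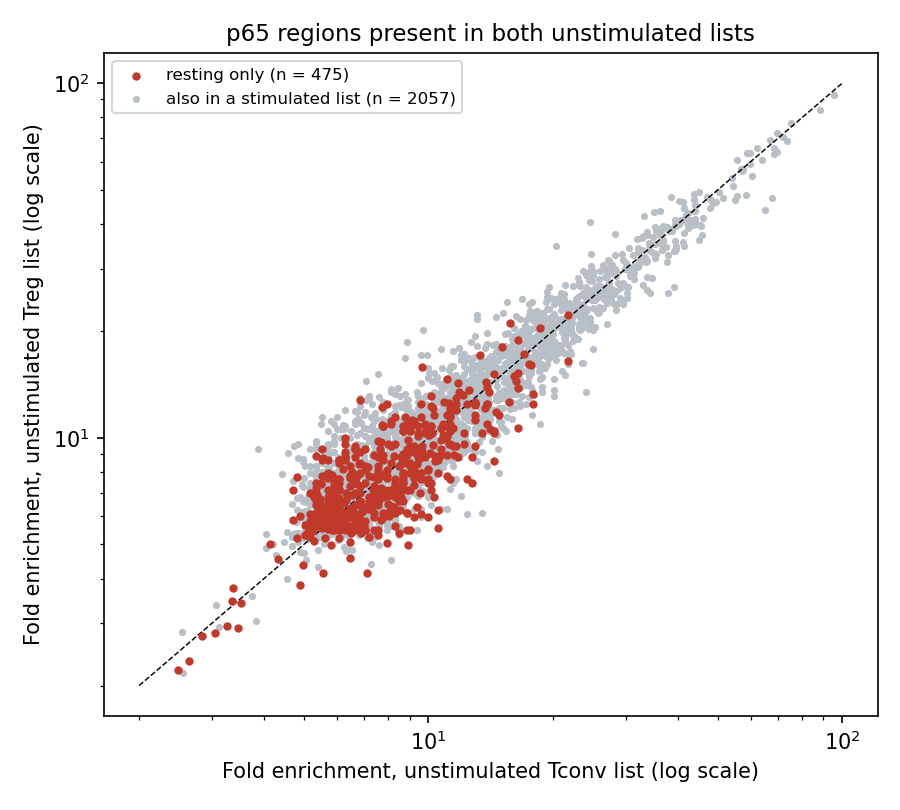
Fold enrichment in the unstimulated Treg list (vertical) against the unstimulated Tconv list (horizontal), both on log scales, for the 475 resting-only regions (red) and the regions of both unstimulated lists that were also in a stimulated list (grey); the dashed line marks equal folds. The red points keep to the lower part of the cloud, none above 22.2-fold in Treg or 21.8-fold in Tconv.

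**Figure D2:**
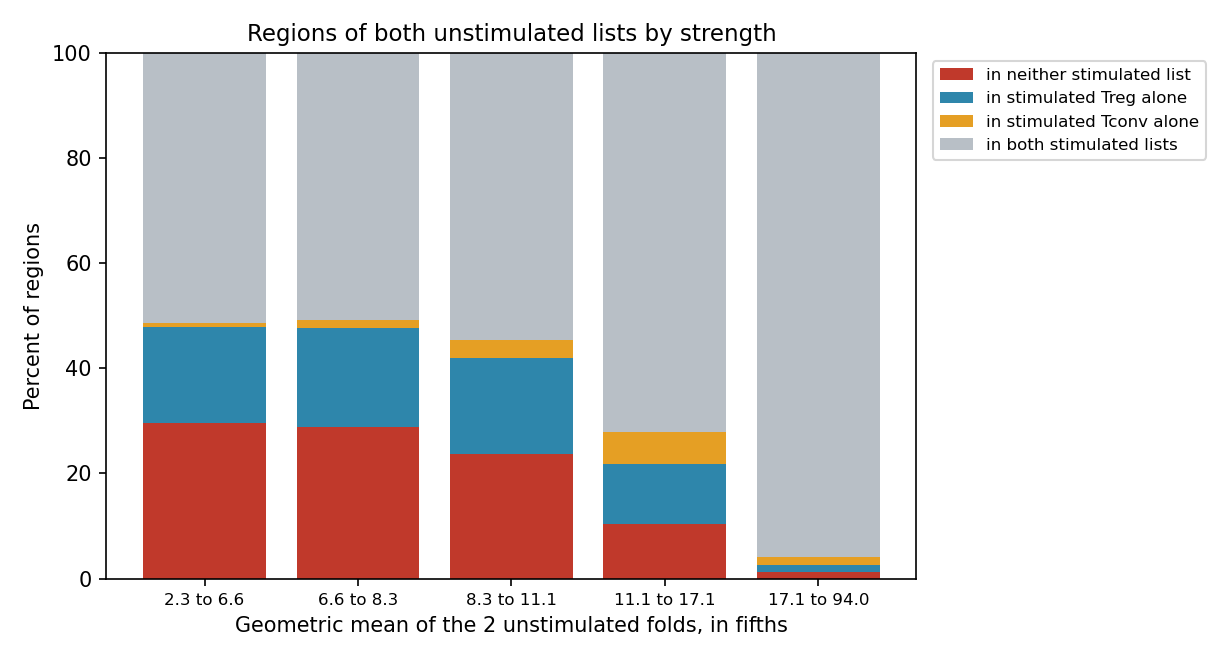
Regions of both unstimulated lists in 5 equal groups by the geometric mean of their 2 unstimulated folds (horizontal, weak to strong), with the percent of each group in neither stimulated list (red), in the stimulated Treg list alone (blue), in the stimulated Tconv list alone (orange) and in both (grey). The red share is 29.6% in the weakest group and 1.18% in the strongest.

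Absence from a stimulated list does not show that p65 left a region, because each list stops at its own strength. The weakest summit listed had a −log10 p of 26.6 in stimulated Treg, 38.1 in stimulated Tconv, 15.1 in unstimulated Treg and 13.3 in unstimulated Tconv. Of the 475 resting-only regions, 282 (59.4%) had an unstimulated Treg summit at or above the end of the stimulated Treg list, and 130 (27.4%) an unstimulated Tconv summit at or above the end of the stimulated Tconv list. Both held for 124, which were 9.86% (8.33 to 11.6%) of the 1258 regions of both unstimulated lists that met both limits. The −log10 p also depends on the depth of a library, so these counts set values of different lists side by side and do not put them on 1 scale.

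The strongest region lay over the start of Pink1, a kinase gene whose product marks damaged mitochondria for removal (chr4:138325317-138326733). It stood at 22.2-fold in unstimulated Treg and 21.8-fold in unstimulated Tconv, with the summit 18 bp from the start. Ankrd26, which encodes a protein of centrioles and cilia (chr6:118561690-118562780), had 20.3-fold in Treg and 18.6-fold in Tconv, 19 bp from the start. The promoter sequences of both are printed above. The third, at 16.4-fold in Treg and 21.7-fold in Tconv, lay within 1 kb of an end of Cox17, which encodes a copper chaperone for cytochrome oxidase (chr16:38352961-38353667).

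Nop56, which encodes a core protein of the particles that methylate ribosomal RNA (chr2:130273958-130274922), had 21.0-fold in Treg and 15.7-fold in Tconv. Dynlrb2, a dynein light chain gene (chr8:116504662-116505257), had 18.9-fold and 16.4-fold in the same order. Ell, which encodes an elongation factor of RNA polymerase II (chr8:70538767-70539909), had 17.3-fold in Treg and 17.0-fold in Tconv. Each of these 3 regions differed between the cell types by less than 1.5-fold. Mib2, a ubiquitin ligase gene, had 16.0-fold in Treg and 17.6-fold in Tconv. Pik3cb, which encodes the p110β catalytic subunit of phosphoinositide 3-kinase, had 16.1-fold and 17.5-fold. Eml4, which encodes a microtubule-binding protein, had 18.1-fold in Treg and 15.1-fold in Tconv.

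The others among the 15 strongest were more mixed in position. Fbxo42, an F-box gene (14.95-fold in Treg, 16.1-fold in Tconv), Rrbp1, which encodes a ribosome-binding protein of the endoplasmic reticulum (17.1-fold, 13.3-fold), and the start shared by the kinesin gene Kif24 and Nudt2 (13.8-fold, 16.4-fold) had the region at a start. A region within 1 kb of an end of Fndc10 had 14.4-fold in Treg and 16.2-fold in Tconv. A region 11.7 kb outside the zinc finger gene Zfp518b had 15.3-fold in Treg and 16.4-fold in Tconv. One of the strongest (13.3-fold in Treg, 17.9-fold in Tconv, chr9:84970191-84971342) lay 349.7 kb from the nearest protein-coding gene.

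Treg and Tconv gave nearly the same resting signal at these regions. The median log2 ratio of the Treg fold to the Tconv fold was -0.03, against 0.05 for the regions of all 4 lists. Its quartiles were -0.217 and 0.192, against -0.128 and 0.241 for the regions of all 4 lists. Ratios near 1 were thus not particular to the resting-only regions. The rule also asks for a peak in both unstimulated lists, which favours like folds. Over the 1644 regions of all 4 lists the log2 ratio ran from -1.13 to 1.26. The Treg fold was the higher in 231 regions and the Tconv fold in 244, and 446 of the 475 (93.9%) differed by at most 1.5-fold. No region differed by more than 2-fold, and the summits lay within 100 bp of each other in 467 of 475. The folds of 2 lists are not on a common scale of depth, so ratios near 1 describe the lists.

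The largest ratio was at a region inside Map2k5, a kinase gene of the ERK5 pathway, with 12.8-fold in Treg and 6.83-fold in Tconv. It was followed by regions inside Reep5 (9.29-fold in Treg, 5.54-fold in Tconv) and the deubiquitinase gene Usp42 (8.86-fold, 5.35-fold), 32.6 kb outside Tmem121 (15.8-fold, 9.67-fold) and at an end of Serinc1 (7.76-fold, 4.82-fold). At the other extreme, a region 22.0 kb outside the receptor phosphatase gene Ptprk had 5.57-fold in Treg and 10.6-fold in Tconv. Zfp68 (4.98-fold in Treg, 8.92-fold in Tconv) and the splicing factor gene Prpf38b (4.17-fold, 7.11-fold) had the region at the start, and Rpl14 had it 8.46 kb outside (6.25-fold, 10.6-fold). None of these regions reached a ratio of 2 in either direction.

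By position, 324 of the 475 regions (68.2%, 63.9 to 72.2%) had their stronger summit within 1 kb of an end of a protein-coding gene, where 74.2% of all regions of both unstimulated lists did. A further 106 (22.3%, 18.8 to 26.3%) were inside a gene, against 17.1% of all regions of both unstimulated lists. Another 38 were outside within 50 kb, and 7 were farther away. Regions found only in stimulated lists had 21.4% within 1 kb of a gene end. The promoters of RefSeq's table give starts and strands for all chromosomes with resting-only regions other than chromosome 18, which holds 13 of them. Of the other 462 regions, 297 (64.3%, 59.8 to 68.5%) had an annotated coding start within 1 kb, against 68.7% of all regions of both unstimulated lists and 68.9% of the regions of all 4 lists. The share of starts was thus slightly below its background, which lay just above the interval. The share inside genes was above its own background, with no test of either.

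The summits clustered just before the start. Among the 297 regions the median summit was at -24 bp, with quartiles of -85 and 16 bp, where minus means upstream, and 195 (65.7%) lay upstream. For the 1105 regions of all 4 lists with a start within 1 kb the median was -49 bp and 76.4% lay upstream. The median was -36 bp for 239 regions also in stimulated Treg alone and -25 bp for 53 also in stimulated Tconv alone. Of these, 69.0% and 67.9% lay upstream, close to the resting-only share. The resting-only regions also spanned less DNA, with a median width of 701 bp in the unstimulated Treg list, against 960.5 bp for the regions of all 4 lists. Regions also in stimulated Treg alone or in stimulated Tconv alone stood between, at 795.5 and 763 bp.

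**Figure D3:**
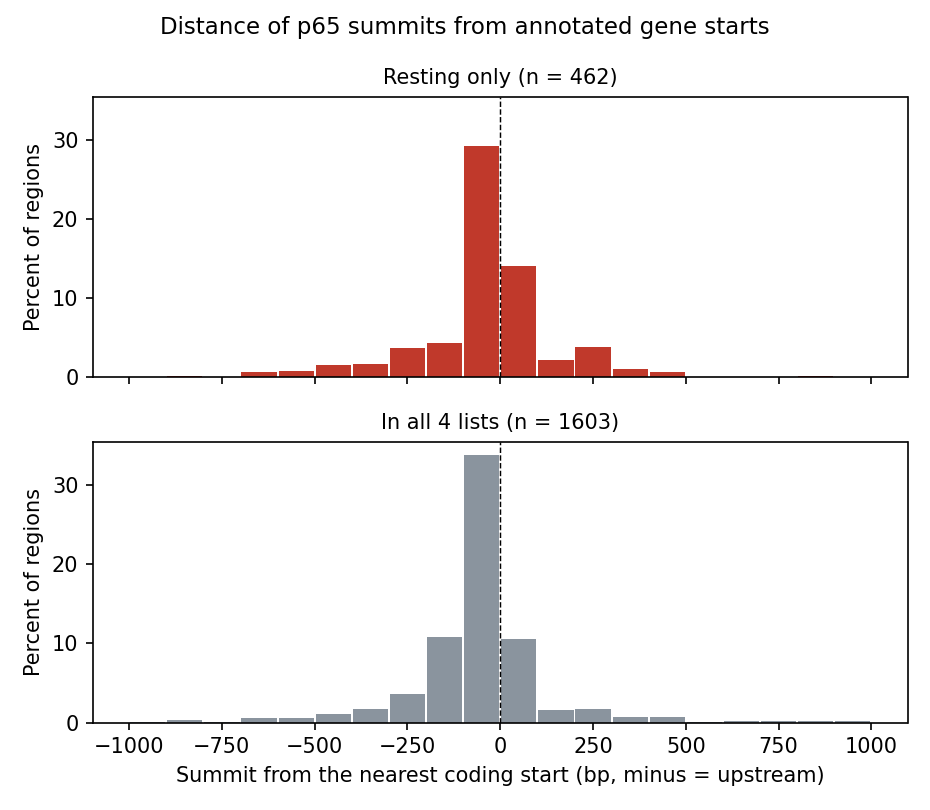
Distance from the strongest unstimulated summit to the nearest annotated coding start (horizontal, bp, minus for upstream; bins of 100 bp) as a percent of regions, for 462 resting-only regions (top) and 1603 regions of all 4 lists (bottom), without chromosome 18. Both peak in the bin just upstream of the start.

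Some promoters serve genes on both strands. Such pairs were found at 21 of the 297 regions at a start (7.07%, 4.67 to 10.6%), against 145 of 1105 (13.1%, 11.3 to 15.2%) for the regions of all 4 lists, with no test of the difference. Polr1a, which encodes the largest subunit of RNA polymerase I, shared its region with Ptcd3 (10.8-fold in Treg, 10.8-fold in Tconv). Ndufa8, a complex I gene, shared one with Morn5 (9.03-fold, 10.1-fold), and Cul4a, a ubiquitin ligase scaffold gene, with Pcid2 (7.70-fold, 7.94-fold). Fen1, which encodes a nuclease of DNA replication, lay across from Tmem258 (7.17-fold, 6.09-fold).

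Each region was assigned to 1 protein-coding gene, by a start within 1 kb, then a gene end within 1 kb, then the nearest gene within 50 kb, which gave 465 genes, or 2.12% of all 21887. None of 35 genes of the NF-kB family and its feedback had a resting-only region (Wilson interval up to 9.89%), while 22 had a region of all 4 lists (62.9%, against 7.12% of all coding genes). None of 32 T cell activation genes (up to 10.7%) and none of 29 T cell receptor signalling genes (up to 11.7%) had one, while 11 and 7 had a region of all 4 lists. In lists of this size a count of 0 is near the 2.12% of all coding genes and shows no lack of resting-only regions. Of 28 Treg identity genes, Prdm1 alone had one, at 5.98-fold in Treg and 6.46-fold in Tconv, 0.995 kb outside the gene; it encodes the repressor Blimp1.

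Several mitochondrial genes were among those with resting-only regions. Of 110 genes of oxidative phosphorylation, 8 had one (7.27%, 3.73 to 13.7%), led by Cox17, given above, Cox5b (12.3-fold in Treg, 12.9-fold in Tconv) and Ndufa8. Cox5b encodes a subunit of cytochrome oxidase. In the mitophagy and autophagy list the count was 4 of 50: beside Pink1 these were Ulk1, the kinase gene that starts autophagy (12.0-fold in Treg, 11.6-fold in Tconv), Bnip3, which encodes a mitophagy receptor (9.13-fold, 9.23-fold), and Map1lc3a at an end (4.38-fold, 4.98-fold). The mitochondrial ribosome had 3 of 78 (3.85%, 1.32 to 10.7%, an interval that holds the 2.12% of all coding genes), Mrpl34 (7.14-fold, 9.05-fold), Mrps14 (6.54-fold, 6.26-fold) and Mrpl58. Of 31 genes of lipoate and other mitochondrial cofactors, the ubiquinone synthesis genes Coq3 (7.14-fold, 8.86-fold) and Coq2 (5.38-fold, 8.49-fold) had one. Their share was 6.45% (1.79 to 20.7%), an interval that also holds 2.12%.

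Genes of ribosomes and RNA followed. In ribosome biogenesis 8 of 98 genes (8.16%, 4.19 to 15.3%) had a resting-only region, with Nop56 and Polr1a ahead of the helicase gene Ddx56 (6.27-fold in Treg, 8.56-fold in Tconv). Cytosolic ribosomal protein genes had 5 of 85, at the starts of Rps9 (14.4-fold, 13.8-fold), Rpl19 (12.1-fold, 13.7-fold) and Rpl35 (11.6-fold, 12.9-fold), at Rpl7 and outside Rpl14. Pseudogene copies of such genes can take reads, and the authors' treatment of reads with several matches is not stated in the labels. RNA splicing genes had 6 of 95, led by the splicing factor genes Srsf6 (7.80-fold, 9.42-fold), Plrg1 (7.47-fold, 6.65-fold) and Dhx15 (7.40-fold, 5.51-fold). Of 37 aminoacyl-tRNA synthetase genes, Sars alone had one (10.5-fold, 8.68-fold). That share, 2.70% (0.479 to 13.8%), was near the 2.12% of all coding genes.

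Chromatin regulators had 10 of 156 (6.41%, 3.52 to 11.4%), among them a region inside Arid1b, a subunit gene of the SWI/SNF remodeller (13.9-fold in Treg, 13.8-fold in Tconv), and starts of the histone methyltransferase gene Ezh1 (10.95-fold, 8.11-fold) and the demethylase gene Kdm1a (7.85-fold, 7.78-fold). DNA repair and replication genes had 5 of 134 (3.73%, 1.60 to 8.44%), led by the primase gene Prim1 (14.3-fold, 11.8-fold), Fancm (8.78-fold, 5.58-fold) and Xrcc2 (6.45-fold, 7.22-fold). Ubiquitin ligase and proteasome genes had 11 of 316 (3.48%, 1.95 to 6.12%), with Fbxo42, Rnf32 (8.96-fold, 11.1-fold) and Rnf130 (7.63-fold, 12.4-fold) at the front. Vesicle and membrane traffic genes had 12 of 353 (3.40%, 1.96 to 5.85%), with the sorting nexin gene Snx4 (12.9-fold, 11.6-fold) at the start, Vamp9 (11.8-fold, 11.3-fold) and a region inside Arf3 (10.1-fold, 11.1-fold). The intervals of the DNA repair, ubiquitin and vesicle lists all hold the 2.12% of all coding genes. Zinc finger genes with Zfp symbols had 16 of 400, after Zfp518b led by Zfp873 (13.6-fold, 12.6-fold) and Zfp619 (13.4-fold, 11.8-fold). In every one of these general lists a larger share of genes had a region of all 4 lists, from 32 of the 400 Zfp genes to 24.4% of the chromatin regulators. The lists were chosen with earlier results of these data known, and how far resting T cells express their genes was not measured here.

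**Figure D4:**
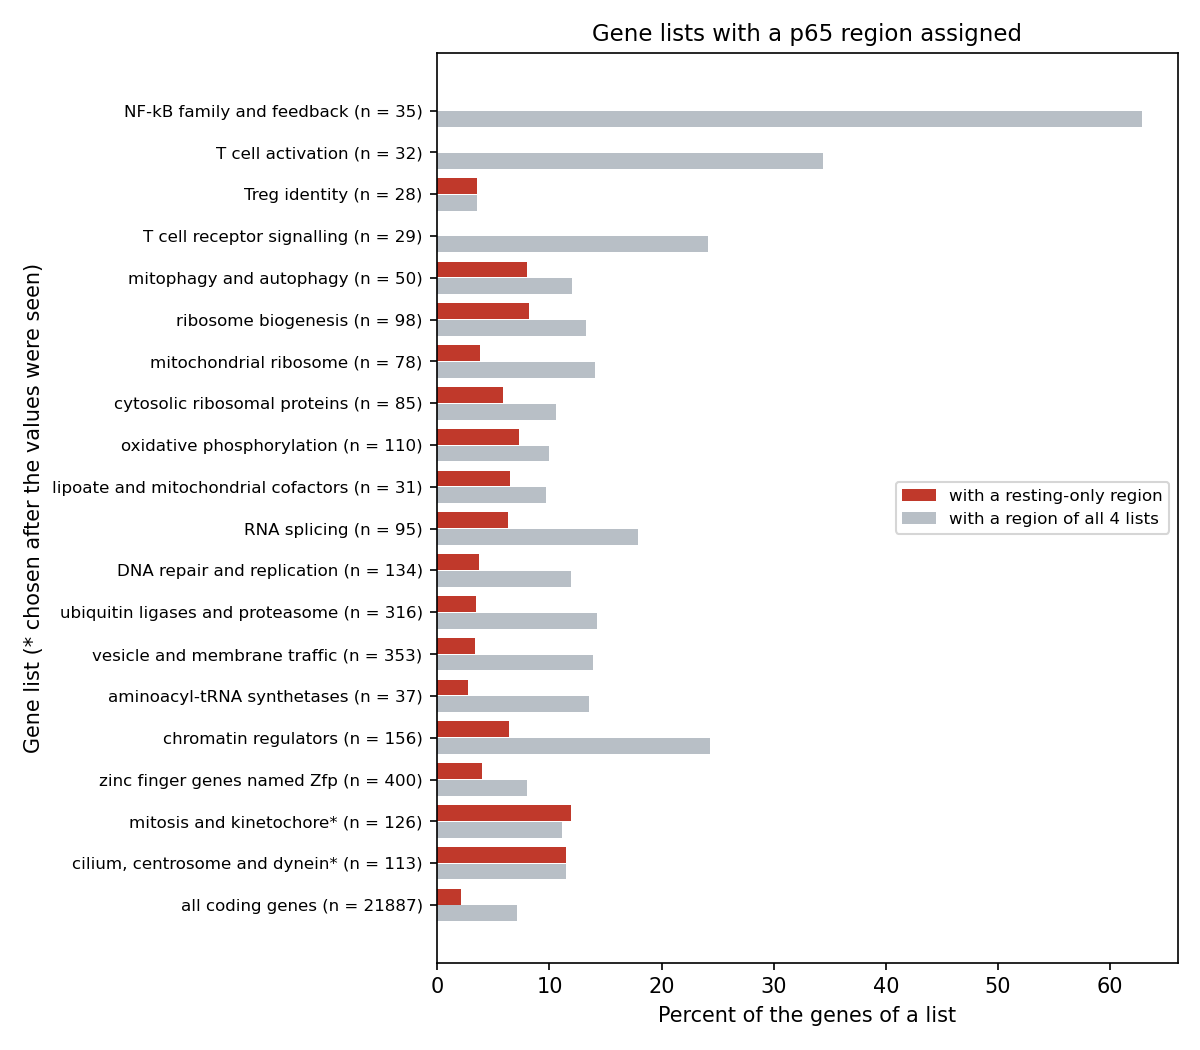
Percent of the genes of each list (number in brackets) with a resting-only region assigned (red) and with a region of all 4 lists assigned (grey); the bottom row is all 21887 coding genes, at 2.12% and 7.12%. NF-kB, activation and T cell receptor genes have grey bars alone, and asterisks mark 2 lists chosen after the values were seen.

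The genes themselves often had a p65 region elsewhere after stimulation. Of the 465 genes, 274 (58.9%, 54.4 to 63.3%) had a stimulated region in the gene or within 50 kb of it, where 51.3% of all coding genes had one. Within 10 kb the order was the other way, at 30.3% (26.3 to 34.6%) of the 465 genes and 33.4% of all coding genes. For the 297 genes with the resting-only region at their start the share was 56.2% (50.5 to 61.8%) within 50 kb and 23.2% (18.8 to 28.4%) within 10 kb. By the rule no stimulated region overlaps a resting-only one, so selection in part closed these starts to a stimulated region. All coding genes had no such limit, so the 10 kb shares do not compare like with like. Within 50 kb the share was 57.4% of the 465 genes in stimulated Treg and 43.0% in stimulated Tconv. Over all coding genes it was 50.4% and 37.7%. From Pink1's region the nearest stimulated region was 20.1 kb away, from Eml4's 1.33 kb and from Nop56's 288.4 kb.

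Few regions came close to the edge of the rule. A stimulated region lay within 500 bp of 8 of the 475 and within 1 kb of 15, and the median distance was 53.8 kb. The closest without overlap were a region inside Uggt2, 116 bp from a stimulated Treg region (12.6-fold in unstimulated Treg, 12.9-fold in unstimulated Tconv), the start of Ubox5 at 174 bp (6.64-fold, 7.57-fold) and the start of Slk at 201 bp (9.88-fold, 8.92-fold). On the other side of the rule, the smallest overlap that kept a region out was 217 bp, outside Tmem196, with 2.08-fold in stimulated Treg, 2.21-fold in stimulated Tconv, 2.16-fold in unstimulated Treg and 2.55-fold in unstimulated Tconv. Next came 221 bp outside Ifna13 (3.09-fold in stimulated Treg, 2.92-fold in unstimulated Treg, 3.12-fold in unstimulated Tconv) and 222 bp at an end of Wls (5.19-fold in stimulated Treg, 5.53-fold in stimulated Tconv, 6.43-fold in unstimulated Treg, 5.61-fold in unstimulated Tconv).

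kB motifs were no more frequent at these promoters than at promoters in general. In the window of 250 bases before to 50 after the start, GGGNNTTCC on either strand was found at 16 of 288 promoters with a resting-only summit within 500 bp of the start (5.56%, 3.45 to 8.83%), where 6.3% of all 21263 coding promoters in the table held it. The share was 97 of 1062 (9.13%, 7.55 to 11.02%) at regions of all 4 lists and 54 of 499 (10.8%, 8.39 to 13.9%) at regions of both stimulated lists alone. The degenerate 10-base kB consensus gave 4.17%, 7.63% and 7.82% in the same order, and 4.81% of all coding promoters. At 224 promoters of regions also in stimulated Treg alone, GGGNNTTCC was at 7.14% (4.44 to 11.3%) and the 10-base consensus at 4.02%. Matching bases at resting-only promoters were GGGACTTCC at Cox5b and Pdrg1, GGGGCTTCC at Eml4 and GGGCCTTCC at Mrpl34. These matches say nothing on whether p65 or another factor touched the site.

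Other promoter motifs were counted in the same window on both strands. NRF1 sites, GCGCA followed at once by TGCGC and bound by a factor of mitochondrial and other constitutive genes, were found at 17 of 288 resting-only promoters (5.90%, 3.72 to 9.25%), against 9.89% (8.23 to 11.8%) at regions of all 4 lists and 0.401% (0.110 to 1.45%) at regions of both stimulated lists alone. The CCAAT box, bound by NF-Y, was at 40.6% (35.1 to 46.4%), against 30.3% at regions of all 4 lists and 40.5% at those of both stimulated lists alone. Cyclic AMP response elements (TGACGTCA) were at 1.04% of resting-only promoters, against 3.67% and 5.01%, and AP-1 sites (TGANTCA) at 1.39%, against 3.86% and 5.41%. ETS sites (CCGGAAG) were at 18.8% and Sp sites (GGGGCGGGG) at 27.8% of resting-only promoters. At promoters of regions also in stimulated Treg alone, NRF1 sites were at 6.25% and the CCAAT box at 34.8%. Cyclic AMP response elements were at 3.57% of these and AP-1 sites at 2.23%.

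Base composition differed between these sets of promoters. The median GC content was 63.0% at resting-only promoters, 65.7% at those of all 4 lists, 60.3% at those of both stimulated lists alone and 56.3% over all coding promoters. A comparison at like GC content was added after these values were seen. Among the 6160 coding promoters with GC content between the quartiles of the resting-only ones, 58.3 and 68.4%, the shares were 7.99% for GGGNNTTCC, 2.08% for NRF1, 37.97% for CCAAT, 18.9% for ETS, 23.5% for Sp, 3.80% for cyclic AMP response elements and 4.30% for AP-1. YY1 sites (AAGATGGCG) were at 5.56% of resting-only promoters (3.45 to 8.83%), against 4.05% (3.02 to 5.41%) at regions of all 4 lists and 2.81% of promoters of similar GC content, and the first and second intervals overlapped. At resting-only promoters and at those of similar GC content, E-boxes (CACGTG) were at 10.8% and 10.8% and Runx sites (TGTGGTT) at 3.13% and 3.20%.

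**Figure D5:**
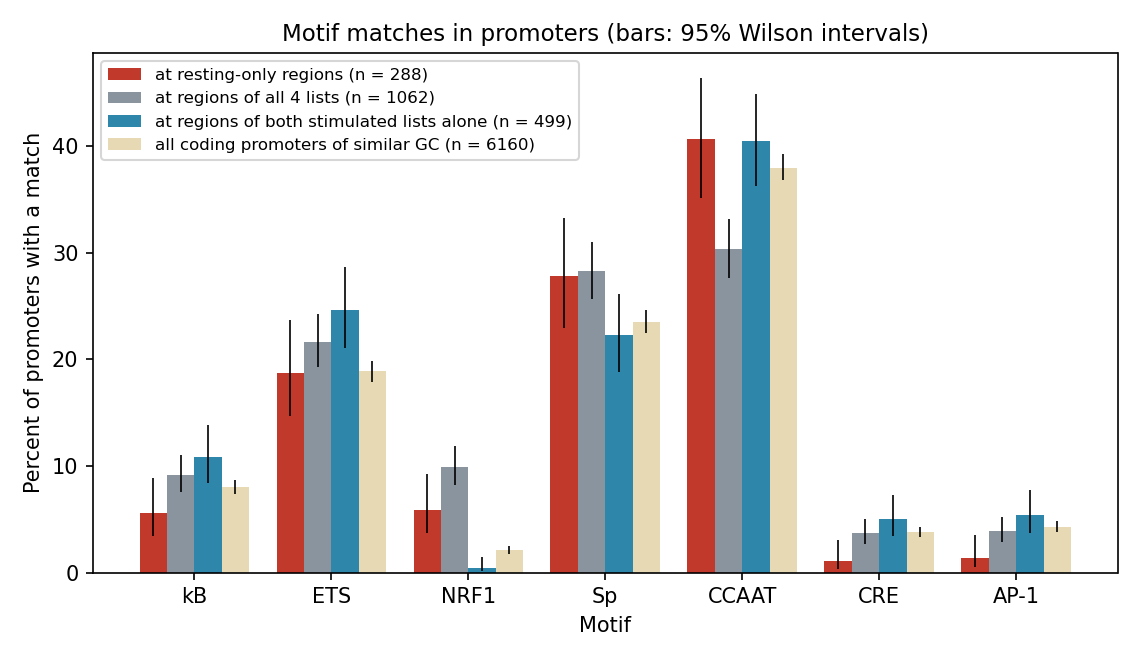
Percent of promoters with a match to 7 of the motifs (vertical, with 95% Wilson intervals) at resting-only regions (red), regions of all 4 lists (grey), regions of both stimulated lists alone (blue) and among coding promoters of similar GC content (sand). The kB share is 5.56% at resting-only regions, and NRF1 matches are almost absent from the promoters of both stimulated lists alone, at 0.401%.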

How the data were processed

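p65 ChIP-seq was analysed from the authors' 4 peak lists, 1 per immunoprecipitated group, made from pooled replicates without blacklisted regions and kept by a conservative test of reproducibility (IDR), per the deposited names. Per the submitters' processing notes, MACS2 2.1.1.20160309, Trim Galore 0.4.1 and BWA 0.7.15-r1140 were used with the mm10 build. The authors' deposited fold enrichment is a ratio of the summit over its local background, and their deposited −log10 p belongs to the same summit. The deposited score is 10 times the −log10 p and was used only to check it.

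Each region took its strongest summit by −log10 p, and positions used the stronger unstimulated one where there was one. Genes and promoters came from RefSeq's tables for GRCm38.p6. Promoters were found for 17492 of 21887 coding genes and none on chromosome 18, so starts are undercounted. Lists marked by family hold coding genes whose symbols begin with the family's letters, apart from any symbols set aside, and any genes named singly. No test was made, because each group has 1 list and presence in the lists chose the regions. The members, gene lists and motifs were chosen with earlier results of these data known. Named genes are those of the 15 strongest regions by geometric mean fold, the 5 at each end of the Treg to Tconv ratio, up to 3 per gene list and 3 at each edge of the rule; others were chosen after their values were seen. One gene that this rule names is not reported here. Python 3.11.15, numpy 2.4.6, pandas 2.3.3 and scipy 1.17.1 were used, and the code was checked on simulated lists.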

Additional observations from a re-analysis of the deposited data

How the results depend on the processing

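No paired analysis was possible because each list pools both libraries of a group, and for the same reason no library could be left out. The number of resting-only regions, 475, was 154 when all 4 lists ended at the common −log10 p of 38.1, of which 101 overlapped the 475, and 147 with the upper 50% of each unstimulated list. It stayed within 1.5 times at 478 with an overlap of at least 50% of the shorter region, 641 with summits within 200 bp and 467 with no stimulated region within 500 bp. The share at a gene end, 68.2%, was 63.2% within 500 bp, 73.7% within 2 kb, 74.5% with all genes of the table and 76.6% at the common cut-off. The common cut-off also gave median folds of 11.7 in Treg and 11.8 in Tconv, since it removes weak summits. Genes with a stimulated region numbered 30.3% within 10 kb and 72.5% within 100 kb, against 33.4% and 62.4% of all coding genes. The lower share at 10 kb is in part set by the rule, which keeps stimulated regions off the resting-only ones. Means over the summits of a region, the 10-base kB consensus and summits inside the promoter window left the other values within their intervals.

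The lists give no read numbers, and whether an absent region lies just below the end of a list was not tested. Regions are not replicates, and several can share a promoter or a cluster of genes.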

Other observations

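Several genes of cell division and of cilia, centrosomes and dynein had a resting-only region. Both lists were drawn up after these values were seen, so their shares have no test and cannot show an excess. Of 126 genes of mitosis and the kinetochore, 15 had a resting-only region (11.9%, 7.35 to 18.7%) and 14 a region of all 4 lists (11.1%), against 2.12% and 7.12% of all coding genes. Behind Kif24 came Cenpi, a centromere protein gene (12.4-fold in Treg, 9.60-fold in Tconv), the kinesin gene Kif2a (7.97-fold, 10.5-fold) and Ccnf, which encodes cyclin F (8.52-fold, 8.80-fold). Mad2l1 (6.41-fold, 6.86-fold) and Haspin (5.81-fold, 5.91-fold), which act at chromosomes in mitosis, also had theirs at the start.

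Of 113 genes of the cilium, centrosome and dynein, 13 had a resting-only region (11.5%, 6.85 to 18.7%), and 13 had a region of all 4 lists. After Ankrd26 and Dynlrb2 these were led by Tmem237 (10.3-fold in Treg, 12.2-fold in Tconv) and Cep250 (10.5-fold, 11.3-fold), and included the Bardet-Biedl gene Bbs9 (6.64-fold, 6.00-fold).

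By chromosome, the percent of regions of both unstimulated lists that were resting only ran from 14.4% on chromosome 17 to 34.6% on chromosome X, where they were 9 of 26 regions (19.4 to 53.8%). Over all chromosomes it was 18.8%. Chromosome X was picked as the highest of all chromosomes and rests on few regions.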
